A study of Homo sapiens with 16 samples.

Results

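KDM1A, a histone demethylase also called LSD1, was set against the histone mark H3K9me3 in PC9 cells given osimertinib, by comparing where the listed regions of each lie. All regions of both lists were taken: 8882 for KDM1A and 2073 for H3K9me3, 10955 of the 59617 regions in the 8 lists analysed. PC9 cells are an established line of human lung adenocarcinoma that depends on mutant EGFR, the kinase osimertinib inhibits. Both libraries came from unedited (wild type) PC9 cells with osimertinib, 1 library per target, so no difference below has a replicate check and no p-value is given. The sources used here name neither the kind of binding assay nor the osimertinib dose and time for it. The other 6 lists, for H3K4me1 and H3K4me3 with osimertinib and for all 4 targets with vehicle (DMSO), were used only to describe the sites, and 6 RNA and 2 IgG samples of the 16 in the series were not analysed here. As a check of the cell label, 5 of 5 epithelial marker genes (EPCAM, CDH1, KRT8, KRT18 and KRT19) had an H3K4me3 promoter region with osimertinib, against 0 of 5 fibroblast and endothelial and 0 of 5 leukocyte markers.

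KDM1A works in the CoREST complex, where it takes methyl groups from H3K4 at promoters and enhancers and so damps transcription. It has also been described to act on H3K9 with other partners. H3K9me3 marks silent heterochromatin. It is laid down at repeats next to centromeres and over clusters of zinc finger genes, where zinc finger proteins with a KRAB domain recruit the corepressor TRIM28 and an H3K9 methyltransferase.

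Each region is 2 kb wide, on GRCh38, with the annotation class and nearest gene the authors gave it. Chromosome 5 up to a start of 50 Mb, here called 5p, held 2037 KDM1A regions and 126 H3K9me3 regions, so results are given with and without it. Intervals in brackets are 95% intervals (Clopper-Pearson for a share, Newcombe for a difference of shares) and cover counting error only. For a count of 0 the limit given is that of 3 counts of the total, which is below the bound of the exact interval. Ranks order the regions of 1 list by deposited signal, from rank 1 for the highest.

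The gene starts inside the regions differed in sequence between the targets, and those at the regions with the highest signal are shown for that reason. RefSeq windows (GRCh38.p14) of 300 bases, 250 before and 50 after each gene's start, were matched to the regions by position. The windows below are those of the 3 strongest regions of each list that hold a whole window of a gene with an assigned symbol (uncharacterised LOC entries were passed over), 1 window per region. Capitals mark CG, the CpG dinucleotide, which reads the same on both strands. For KDM1A the windows belong to KDM1A itself, to PTTG2, a securin-related gene, and to FGGY-DT, a divergent transcript of FGGY.
KDM1A (chr1:23019218-23019517, + strand): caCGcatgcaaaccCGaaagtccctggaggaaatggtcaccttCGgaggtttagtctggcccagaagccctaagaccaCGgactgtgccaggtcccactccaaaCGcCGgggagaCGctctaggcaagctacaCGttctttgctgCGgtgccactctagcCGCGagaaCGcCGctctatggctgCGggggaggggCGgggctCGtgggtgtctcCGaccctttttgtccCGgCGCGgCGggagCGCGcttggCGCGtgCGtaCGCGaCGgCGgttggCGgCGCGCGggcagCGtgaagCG
PTTG2 (chr4:37960148-37960447, + strand): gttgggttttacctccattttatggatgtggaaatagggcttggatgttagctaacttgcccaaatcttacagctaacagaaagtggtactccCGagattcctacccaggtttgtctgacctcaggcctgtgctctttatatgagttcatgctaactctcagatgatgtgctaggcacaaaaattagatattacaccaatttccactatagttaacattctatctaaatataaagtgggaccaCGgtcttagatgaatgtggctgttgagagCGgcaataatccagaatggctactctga
FGGY-DT (chr1:59295899-59296198, - strand): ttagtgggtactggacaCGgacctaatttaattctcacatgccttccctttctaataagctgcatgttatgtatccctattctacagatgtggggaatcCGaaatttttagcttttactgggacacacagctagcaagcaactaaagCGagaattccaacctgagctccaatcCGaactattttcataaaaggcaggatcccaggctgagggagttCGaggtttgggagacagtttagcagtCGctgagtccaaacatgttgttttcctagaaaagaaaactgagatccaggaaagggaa
For H3K9me3 they belong to ZSCAN22 and ZNF584, both zinc finger genes, and to PPP2R1A, which codes for the scaffold subunit of protein phosphatase 2A.
ZSCAN22 (chr19:58326744-58327043, + strand): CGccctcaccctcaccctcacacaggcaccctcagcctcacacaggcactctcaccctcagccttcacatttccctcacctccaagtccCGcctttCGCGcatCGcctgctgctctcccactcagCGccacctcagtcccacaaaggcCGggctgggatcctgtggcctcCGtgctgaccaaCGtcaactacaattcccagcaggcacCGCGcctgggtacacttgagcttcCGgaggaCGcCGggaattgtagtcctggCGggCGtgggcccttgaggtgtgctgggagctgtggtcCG
ZNF584 (chr19:58408399-58408698, + strand): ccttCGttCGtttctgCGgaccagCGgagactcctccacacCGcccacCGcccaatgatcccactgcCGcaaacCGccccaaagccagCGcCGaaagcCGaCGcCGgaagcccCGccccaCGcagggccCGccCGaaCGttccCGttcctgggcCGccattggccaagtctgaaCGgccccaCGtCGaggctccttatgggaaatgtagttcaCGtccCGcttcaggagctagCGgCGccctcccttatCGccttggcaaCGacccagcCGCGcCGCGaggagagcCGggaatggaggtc
PPP2R1A (chr19:52189802-52190101, + strand): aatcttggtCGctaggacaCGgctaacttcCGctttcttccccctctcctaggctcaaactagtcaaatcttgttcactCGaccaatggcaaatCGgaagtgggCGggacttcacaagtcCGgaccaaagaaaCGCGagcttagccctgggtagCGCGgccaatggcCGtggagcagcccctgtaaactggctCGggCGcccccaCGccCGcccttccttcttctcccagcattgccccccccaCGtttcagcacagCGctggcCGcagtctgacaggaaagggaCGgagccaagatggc

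The KDM1A window held 36 CpG, but those of PTTG2 and FGGY-DT held 3 and 6, against 17 at ZSCAN22, 34 at ZNF584 and 20 at PPP2R1A. The same contrast ran through the whole lists. The 75 windows that lay wholly inside KDM1A regions had a median of 2 CpG and a GC content of 42.0%. The 211 inside H3K9me3 regions had a median of 20 CpG and a GC content of 61.0%, and all 35116 windows a median of 14 and 58.7%. At least 20 CpG were present in 10.7% of the windows in KDM1A regions, 51.7% of those in H3K9me3 regions and 41.2% of all windows, and at least 1 CpG in 92.0%, 97.2% and 96.0%. Leaving out 5p for KDM1A and chromosome 19 for H3K9me3 left the medians at 2 and 20. Of the 211 windows in H3K9me3 regions, 154 were on chromosome 19, with a median of 20 CpG and at least 20 in 51.9%. That is close to all 1917 windows of chromosome 19, with a median of 19 and at least 20 in 49.8%. Off chromosome 19, 50.9% of the 57 windows in H3K9me3 regions had at least 20. No window lay inside regions of both targets. Chromosome 8 is not part of this comparison.

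**Figure D1:**
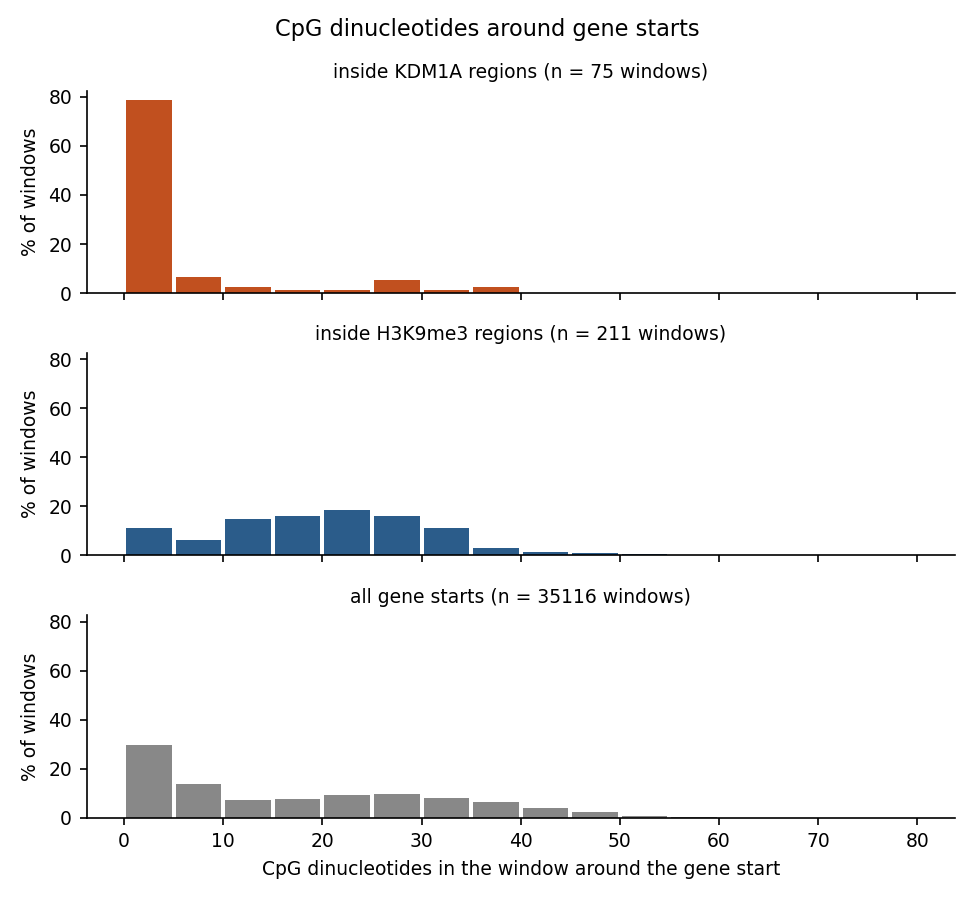
CpG dinucleotides in 300-base windows around RefSeq gene starts, as the share of windows (y axis) per 5 CpG (x axis), for windows inside KDM1A regions, inside H3K9me3 regions and all windows. The windows in KDM1A regions sit mostly at the low end (median 2), while those in H3K9me3 regions centre on 20.

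A gene start of this kind was rare in KDM1A regions. A whole window was held by 68 of 8695 KDM1A regions (0.782%, 0.608 to 0.990) and by 148 of 2055 H3K9me3 regions (7.20%, 6.12 to 8.41). Of the regions the authors classed as promoter, 44 of 1329 for KDM1A (3.31%, 2.42 to 4.42) and 138 of 720 for H3K9me3 (19.2%, 16.4 to 22.2) held one. On chromosome 19 the counts were 0 of 133 KDM1A regions, which allows a share of up to 2.26%, and 108 of 898 H3K9me3 regions (12%, 9.97 to 14.3). The authors' promoter class reaches to 3 kb from the start of any annotated transcript, so a region in it need not hold the RefSeq start used here.

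The targets lay on different chromosomes. Chromosome 5 held 25.9% of KDM1A regions and 7.62% of H3K9me3 regions, a difference of 18.3 percentage points (16.7 to 19.7) that came to 2.18 (1.39 to 2.86) without 5p. Chromosome 19, which carries the main clusters of zinc finger genes, held 1.5% of KDM1A regions (133) and 43.3% of H3K9me3 regions (898), a difference of -41.8 points (-44.0 to -39.7), and -44.2 without 5p. KDM1A also had the larger share on chromosomes 3 (12.4% against 2.85%), 1 (11.1% against 3.62%), 2 (9.55% against 1.83%), X (6.21% against 2.85%) and 11 (5.01% against 1.45%). Of the 24 chromosomes, the interval of the difference lay above 0 on 8, below 0 on 7 and included 0 on 9, and without 5p on 11, 6 and 7. Chromosome 7, which carries EGFR, held 11.3% of KDM1A and 11.8% of H3K9me3 regions. That difference of -0.55 points (-2.14 to 0.933) became 2.04 (0.291 to 3.68) without 5p.

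**Figure D2:**
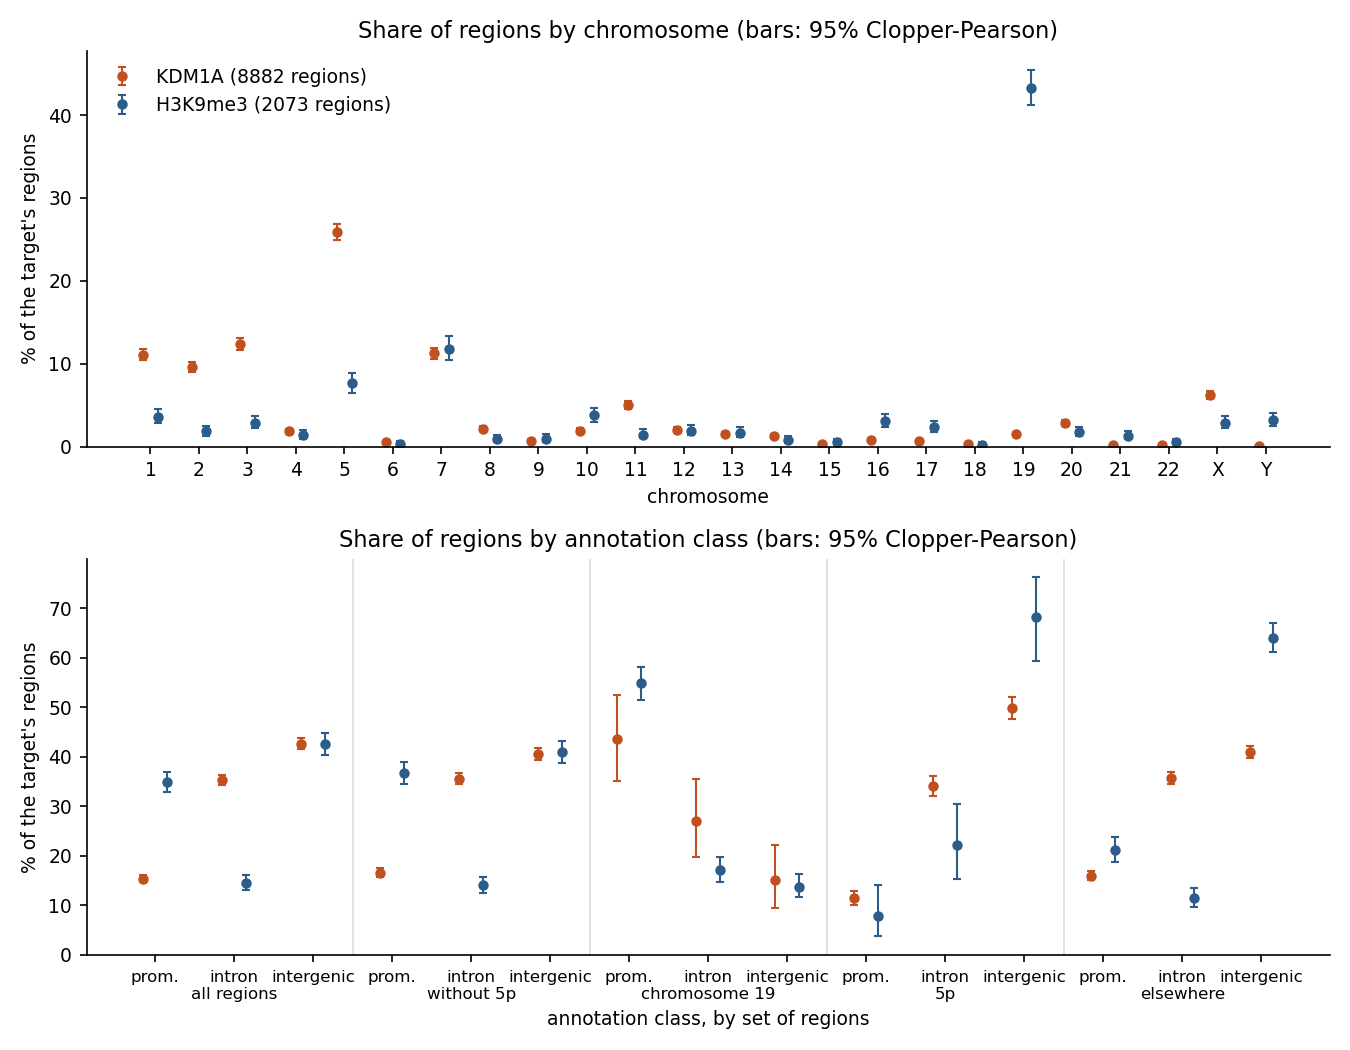
Share of the regions of each target (y axis, %) by chromosome (top) and by annotation class in 5 sets of regions (bottom), with 95% intervals; "elsewhere" leaves out chromosome 19 and 5p. KDM1A peaks on chromosome 5 and H3K9me3 on chromosome 19, and the intergenic shares match over all regions (42.7% and 42.5%) but not elsewhere (41.0% and 64.1%).

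Equal shares of a chromosome did not mean the same places. On chromosome 7 the stretch at 52 to 56 Mb, which includes EGFR, held 172 KDM1A regions and 5 H3K9me3 regions, and none of them overlapped. Over all of chromosome 7, 7 of 1001 KDM1A regions overlapped H3K9me3 (0.699%), so the lack of overlap in that stretch says little by itself. The next stretch, 56 to 58 Mb, held 21 KDM1A regions and 102 H3K9me3 regions, and that at 62 to 64 Mb held 3 and 50. Other stretches rich in KDM1A were chromosome 1 at 112 to 120 Mb (351 KDM1A and 8 H3K9me3 regions), chromosome 3 at 104 to 112 Mb (347 and 9) and chromosome X at 62 to 68 Mb (297 and 31). Stretches rich in H3K9me3 were chromosome 19 at 50 to 54 Mb (58 KDM1A and 320 H3K9me3 regions) and at 56 to 60 Mb (40 and 269), and chromosome 12 at 132 to 134 Mb (0 and 28). These stretches were named after their counts were seen. Copy number was not measured here, and its part in where regions were listed was not tested.

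In bins of 2 Mb, 47 of 1434 bins had at least 40 KDM1A regions, and these held 42.4% of all KDM1A regions and 21.3% of H3K9me3 regions. Without 5p and chromosome 19, 25 of 1379 bins did, with 26.0% of the KDM1A regions left and 6.86% of the H3K9me3 regions left. At least 20 H3K9me3 regions lay in each of 19 of the 1434 bins, which held 61.3% of H3K9me3 regions and 4.81% of KDM1A regions. Both limits were passed by 3 of the 1434 bins, 1 on chromosome 19 and 2 on 5p. With so few bins past either limit, this count does not show that the dense bins of the targets keep apart. Across all 1434 bins the region counts had a Spearman correlation of 0.32, and 0.30 without 5p and chromosome 19. This describes bins of 2 libraries, many with no region of either target, and the limits on the counts were set after the data were seen.

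**Figure D3:**
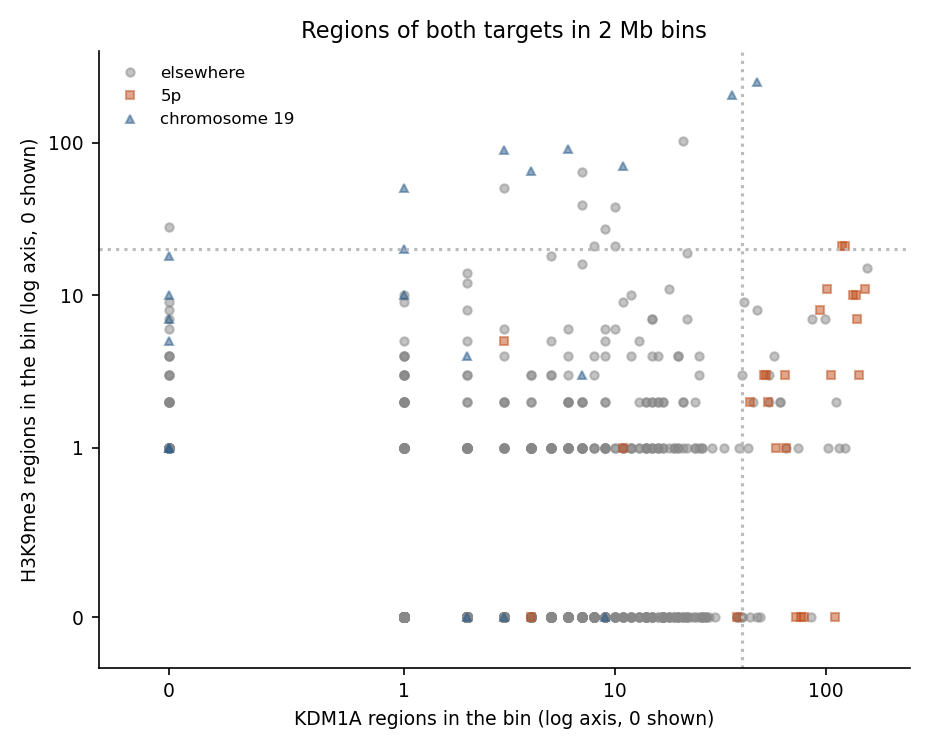
Each point is a 2 Mb bin with at least 1 region, placed by its number of KDM1A regions (x axis) and H3K9me3 regions (y axis), both on log axes with 0 shown; dotted lines mark 40 and 20 regions. At or beyond both lines lie 3 bins, while bins of 5p spread to the right and those of chromosome 19 to the top.

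By annotation, KDM1A regions were more often intronic and H3K9me3 regions more often at promoters. Introns took 35.2% of KDM1A and 14.6% of H3K9me3 regions, a difference of 20.7 points (18.8 to 22.4). Promoters took 15.4% and 34.9%, a difference of -19.5 points (-21.7 to -17.4). Without 5p the differences were 21.5 and -20.1 points. The promoter difference shrank to -5.13 points (-7.85 to -2.60) when chromosome 19 was left out as well, with 16.0% for KDM1A and 21.2% for H3K9me3. On chromosome 19 alone, promoters took 43.6% of KDM1A regions (35.0 to 52.5) and 54.8% of H3K9me3 regions (51.5 to 58.1).

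Intergenic regions made up 42.7% of the KDM1A list and 42.5% of the H3K9me3 list, a difference of 0.11 points (-2.26 to 2.46). That match hid a gap outside chromosome 19 and 5p, where 41.0% of KDM1A regions and 64.1% of H3K9me3 regions were intergenic, a difference of -23.0 points (-26.1 to -19.9). In the stronger 50% of each list by signal the difference was 19.9 points (16.8 to 22.8). Chromosome 19 held 421 and 283 of the regions in the strongest and second strongest groups of 518 H3K9me3 regions. The median distance to a transcript start was 22.8 kb for KDM1A and 6.90 kb for H3K9me3, and 20.4 kb and 6.29 kb without 5p.

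Few places were listed for both targets. By at least 1 bp, 173 KDM1A regions overlapped an H3K9me3 region, 1.95% of that list (1.67 to 2.26), and 175 H3K9me3 regions overlapped a KDM1A region, 8.44% of the shorter list (7.28 to 9.72). Without 5p the counts were 136 of 6845 (1.99%) and 138 of 1947 (7.09%). The 177 overlapping pairs shared a median of 1350 bp, 115 of them at least 1000 bp and 32 at least 1900 bp. The authors assigned 173 pairs to the same gene and 164 to the same class.

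Chromosome 19 held the most shared KDM1A regions of any chromosome, at a high share. There 58 of only 133 KDM1A regions overlapped H3K9me3 (43.6%, 35.0 to 52.5), against 1.95% over the list. On 5p 37 of 2037 did (1.82%, 1.28 to 2.5), and elsewhere 78 of 6712 (1.16%, 0.920 to 1.45). That last group includes chromosomes with few KDM1A regions and high shares. Among them were Y (6 of 9, 66.7%, 29.9 to 92.5), 21 (2 of 11, 18.2%, 2.28 to 51.8) and 17 (6 of 54, 11.1%, 4.19 to 22.6). The share on chromosome 19 exceeded that elsewhere by 42.4 points (34.3 to 50.9). Seen from H3K9me3 the order was another: 59 of 898 regions on chromosome 19 (6.57%, 5.04 to 8.39), 37 of 126 on 5p (29.4%, 21.6 to 38.1) and 79 of 1049 elsewhere (7.53%, 6.01 to 9.30), against 8.44% over the list. Each share is high where the other target is dense, and the part of that density in the overlap was not tested. An overlap of at least 1000 bp left 35 of the 133 KDM1A regions on chromosome 19 (26.3%).

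Distances followed the same places. A KDM1A region lay a median of 0.469 kb from the nearest H3K9me3 region on chromosome 19, 144 kb on 5p and 1049 kb elsewhere. An H3K9me3 region lay a median of 27.7 kb from the nearest KDM1A region on chromosome 19, 2.37 kb on 5p and 71.3 kb elsewhere. Within 10 kb of H3K9me3 were 75.2% of KDM1A regions on chromosome 19 (67.0 to 82.3), 8.35% on 5p and 3.50% elsewhere.

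**Figure D4:**
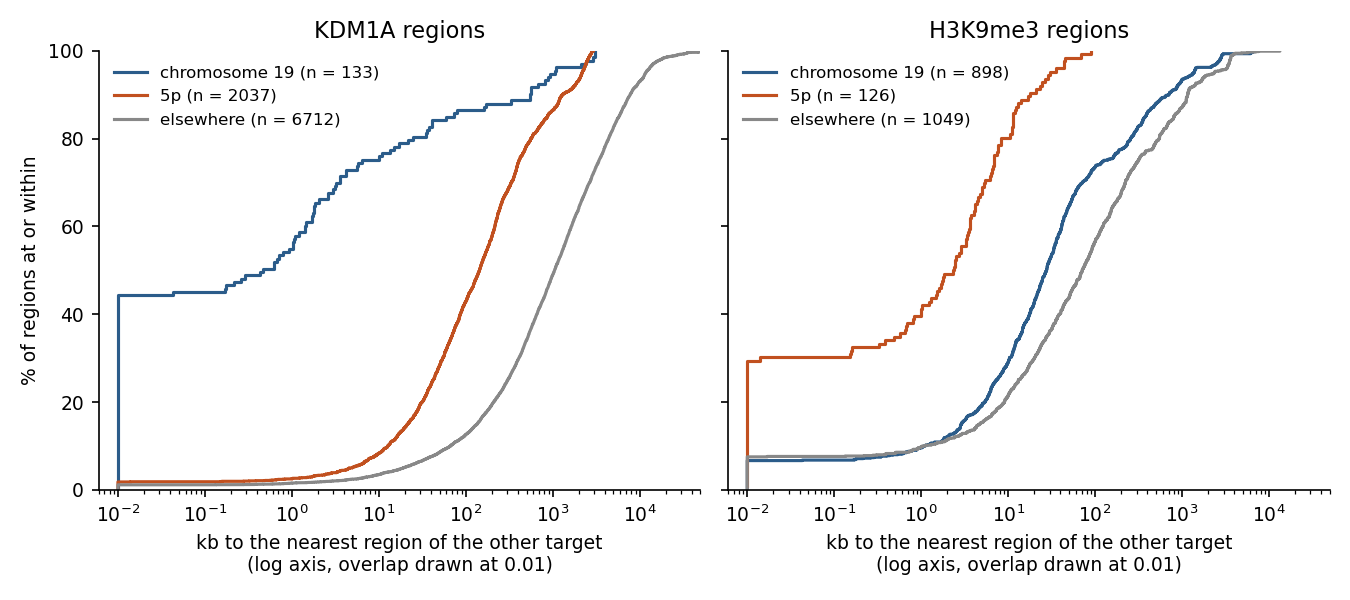
Share of regions (y axis) at or within a given distance (x axis, kb, log scale) of the nearest region of the other target, for KDM1A regions (left) and H3K9me3 regions (right), by part of the genome. KDM1A regions come close to H3K9me3 on chromosome 19, with a median of 0.469 kb, and H3K9me3 regions come close to KDM1A on 5p, with a median of 2.37 kb.

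Many of the shared sites lay close together. Joined where less than 2 Mb apart, the 173 KDM1A regions fell into 39 runs, of which 9 with at least 5 sites held 125 sites. Runs are given from their first to their last shared site, which raises the shared fraction inside them. The run with the most sites was on chromosome 19 from 51.8 to 53.6 Mb, where 39 of 52 KDM1A regions were shared, among 287 H3K9me3 regions. A second one on that chromosome, from 56.4 to 57.9 Mb, had 16 of 31 KDM1A regions shared, among 188 of H3K9me3. On 5p a run from 18.2 to 30.3 Mb held 24 shared sites among 829 KDM1A and 76 H3K9me3 regions. Chromosome X from 63.4 to 66.4 Mb had 15 of 245 KDM1A regions shared.

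Outside chromosome 19 and 5p the 78 shared sites fell into 29 runs, most of them short. Chromosome 20 near 31 Mb had 7 of 9 KDM1A regions shared, chromosome 10 near 41.9 Mb 6 of 7, chromosome 7 near 57 Mb 6 of 9, and chromosome 17 near 21.8 Mb 4 of 6. Chromosome Y had 6 shared sites of its 9 KDM1A regions. Several of these stretches border centromeres, which are rich in repeats. The treatment of reads that match several places is not given in the sources used, no repeat annotation was used, and the part of repeats in these sites was not tested.

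The annotation of shared sites followed the place. On chromosome 19, 27 of the 58 shared KDM1A regions were at promoters, 20 in introns and 3 between genes. On 5p, 3 of 37 were at promoters, 11 in introns and 23 between genes, and elsewhere 2 of 78 were at promoters, 7 in introns and 67 between genes. By class outside chromosome 19 and 5p, 2.43% of intergenic KDM1A regions overlapped H3K9me3 (67 of 2753, 1.89 to 3.08), against 0.292% of intronic ones (7 of 2399, 0.117 to 0.600) and 0.186% of promoter ones (2 of 1076, 0.0225 to 0.670).

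Shared sites were stronger than others in the KDM1A list, but not over the H3K9me3 list as a whole, where signal differed by place. Their median signal percentile was 68.7 for KDM1A, where 41 of 173 (23.7%) were in the top 10% of the list, against 9.73% of the remaining KDM1A regions. For H3K9me3 their median percentile was 48.2, against 50.1 for the remaining regions. By place it was 74.7 on chromosome 19 (72.9 for all H3K9me3 regions there), 21.2 on 5p (23.3) and 39.4 elsewhere (33.0). For KDM1A the median percentile of shared sites was 67.9 on chromosome 19 (62.7 for all KDM1A regions there), 70.2 on 5p (62.2) and 68.7 elsewhere (46.0). In 4 equal groups of KDM1A regions, from the strongest to the weakest, 3.06%, 2.25%, 1.35% and 1.13% overlapped H3K9me3. Outside chromosome 19 and 5p these shares were 2.20%, 1.13%, 0.626% and 0.857%. The 5 strongest regions of either list were not shared. CALM2 (calmodulin), KDM1A, H3F3B (histone H3.3) and the calmodulin pseudogenes CALM2P2 and CALM2P3 led the KDM1A list and lay between 3.80 and 23.1 Mb from the nearest H3K9me3 region. ZSCAN22, TRIM28, ZNF584, CHMP2A (a subunit of ESCRT-III) and PPP2R1A led the H3K9me3 list, all on chromosome 19, and lay between 66.4 and 316 kb from the nearest KDM1A region.

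Of the shared sites with the highest ranks in both lists, sites at genes known only by a clone name left out, the first 2 lay between genes on 5p. They were assigned to EMB (embigin, a partner of monocarboxylate transporters) as the nearest gene, from 809154 and 751546 bp away. These sites began at 49600845 and 49658453 in the KDM1A list, ranked 18 and 13 of 8882 there and 118 and 160 of 2073 for H3K9me3. Both also overlapped H3K4me1 and H3K4me3 regions with osimertinib. In the run from 49.6 to 49.7 Mb that holds them, 3 of 3 KDM1A regions were shared, and all 3 overlapped both H3K4 marks. The label 5p is a cut by position only, and how near these sites lie to the centromere was not checked. The part of repeats in them was not tested either. In intron 2 of ZNF614 (chromosome 19, KDM1A region 52019788 to 52021787) the KDM1A rank was 945 and the H3K9me3 rank 66, with 1510 bp of overlap. At VN1R6P, a vomeronasal receptor pseudogene, regions ranked 885 and 448 shared 1991 bp at a promoter. In ZNF583 regions ranked 616 and 518 shared 1984 bp, and this site was also in the vehicle lists of both targets. Other sites so ranked were assigned to CWH43 (ranks 298 and 405), KSR1P1 (247 and 534, and 753 and 307), NDUFV2P1 (29 and 484), LINC02109 (184 and 598) and IGHV1OR21-1 (783 and 524), and to ZNF814, ZNF610 and ZNF17. Of the 12 genes so named, 5 were ZNF genes, all of them on chromosome 19. Leaving out genes with clone names raises that fraction. Of all 173 shared KDM1A regions, those at clone-named genes included, 34 were assigned to ZNF genes.

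Other lists at these sites were described by overlap. With osimertinib, an H3K4me3 region overlapped 26.6% of the shared KDM1A regions (46 of 173, 20.2 to 33.8), against 1.94% of the other KDM1A regions (169 of 8709, 1.66 to 2.25). For H3K4me1 the shares were 20.2% (14.5 to 27.0) and 2.42% (2.11 to 2.77). Among H3K9me3 regions the contrast was smaller, with H3K4me3 at 22.3% of the shared ones and 13.8% of the others. On chromosome 19 these H3K9me3 shares were 25.4% and 25.6%. Outside chromosome 19 and 5p they were 26.6% and 4.74%. Either H3K4 mark was held by 32% of the shared H3K9me3 regions and 18.5% of the others. The places differed again. Outside chromosome 19 and 5p, 38 of 78 shared sites held either H3K4 mark (48.7%, 37.2 to 60.3), against 4.61% of other KDM1A regions there, and 18 held both marks. On chromosome 19 none of the 58 shared sites held H3K4me1, which allows a share of up to 5.17%, and none of the 75 other KDM1A regions did (up to 4%). H3K4me3 overlapped 31.0% of shared sites there and 18.7% of the others, a difference of 12.4 points whose interval included 0 (-2.25 to 27.0). So 40 of 58 shared sites on chromosome 19, 33 of 37 on 5p and 40 of 78 elsewhere held neither H3K4 mark.

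The vehicle lists are separate libraries and give a further view of the same places. H3K9me3 with vehicle overlapped 56.1% of the shared KDM1A regions (48.3 to 63.6), against 4.52% of the others (4.10 to 4.98). Shared regions were selected by H3K9me3 with osimertinib, so a higher share for the same mark follows at least in part from that choice. Among H3K9me3 regions, H3K9me3 with vehicle overlapped 58.9% of the shared ones and 32.3% of the others. On chromosome 19 it overlapped 72.4% of shared KDM1A regions (59.1 to 83.3) but also 45.3% of the others (33.8 to 57.3). KDM1A with vehicle overlapped 14.5% of the shared KDM1A regions (9.58 to 20.6), against 4.88% of the others (4.44 to 5.35), and on chromosome 19 only 6.90% (1.91 to 16.7), against 3 of 75 (4%) of the others. Of the 177 pairs, 8 overlapped regions of both vehicle lists, 2 of them on chromosome 19, 2 on 5p and 4 elsewhere. The vehicle lists of both targets overlapped each other at 111 of 4731 KDM1A regions (2.35%, 1.93 to 2.82), where chromosome 19 again had a high share, 20 of 72 (27.8%, 17.9 to 39.6). H3K4me1 with vehicle overlapped 17.3% of the shared KDM1A regions (12.0 to 23.8), against 1.24% of the others. For H3K4me3 with vehicle the shares were only 2.31% (4 of 173, 0.633 to 5.81) and 0.700%. Outside chromosome 19 and 5p it overlapped 0 of 78 shared sites, where H3K4me3 with osimertinib overlapped 25. Among H3K9me3 regions, H3K4me1 with vehicle overlapped 16.6% of the shared ones and 10.6% of the others. H3K4me3 with vehicle overlapped 2.29% of the shared H3K9me3 regions and 9.69% of the others. Each of these lists is 1 library.

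**Figure D5:**
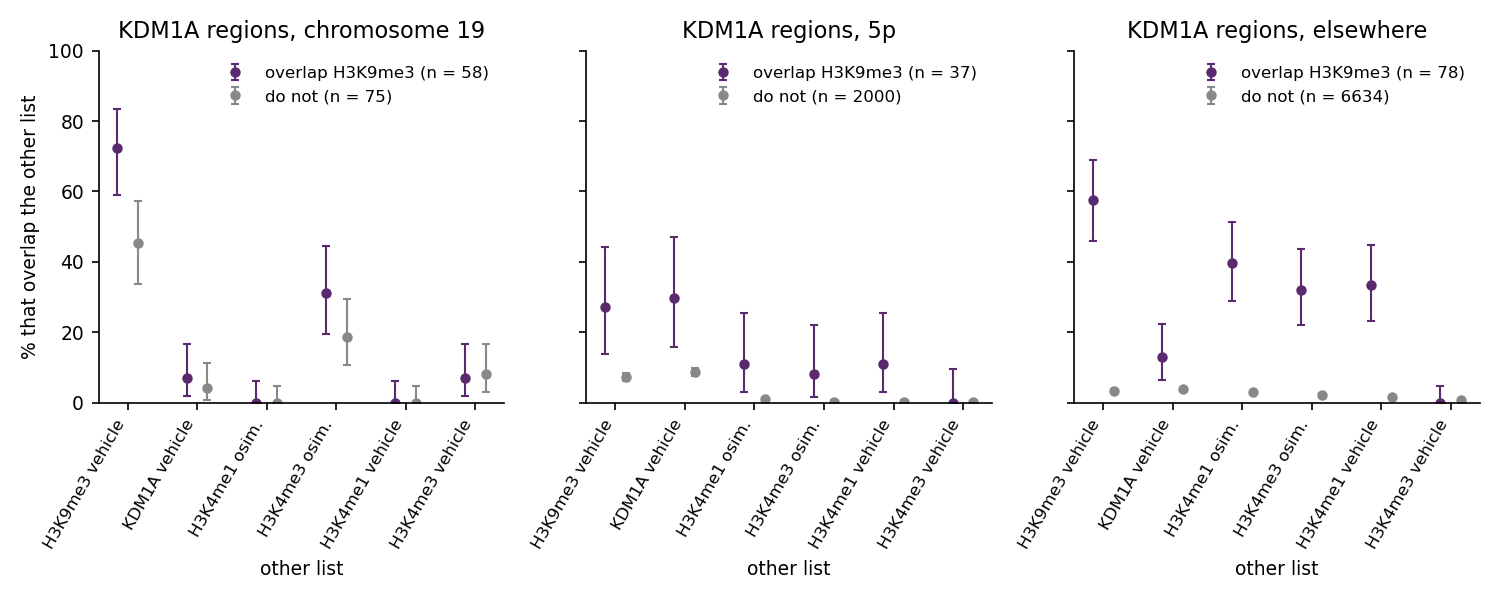
Share of KDM1A regions (y axis, %) that overlap each other list (x axis), for regions that overlap H3K9me3 and those that do not, on chromosome 19, on 5p and elsewhere, with 95% intervals. H3K4me1 is found at 39.7% of shared sites elsewhere and at none on chromosome 19, where H3K9me3 with vehicle reaches 72.4%.

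At the level of genes, 3937 genes were assigned a KDM1A region and 1050 an H3K9me3 region, and 366 were assigned both, 9.3% of the KDM1A genes and 34.9% of the H3K9me3 genes. Of the 366, 239 had no overlapping site. On chromosome 19, 74 of 99 KDM1A genes were also H3K9me3 genes (74.7%, 65.0 to 82.9), and on 5p 64 of 67 H3K9me3 genes were also KDM1A genes (95.5%, 87.5 to 99.1). Elsewhere the 228 genes of both made up 6.52% of 3497 KDM1A genes and 38% of 600 H3K9me3 genes. Counting promoter regions only, 1178 genes had KDM1A, 517 had H3K9me3 and 60 had both, and 43 of those 60 were on chromosome 19.

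Genes with symbols that begin with ZNF, most of them zinc finger genes, made up 41 of the 366 genes of both targets. KDM1A regions were assigned to 61 of them and H3K9me3 regions to 206, with 41 in both. These were 67.2% of the KDM1A ones, against 9.3% of all KDM1A genes, and 19.9% of the H3K9me3 ones, against 34.9% of all H3K9me3 genes. On chromosome 19, 35 of 38 such KDM1A genes also had H3K9me3 (92.1%), and off it 6 of 23 did (26.1%), where 292 of all 3838 KDM1A genes did. A shared site was present for 25 ZNF genes, 24 of them on chromosome 19. The 55 KDM1A regions at ZNF genes of chromosome 19 were at promoters in 45.5% of cases, in introns in 29.1% and in the 3′ UTR in 14.5%, against 57.0%, 18.8% and 9.07% of the 474 H3K9me3 regions. ZNF611 had 1 KDM1A region and 12 H3K9me3 regions, ZNF610 5 and 6, and ZNF331 4 and 5, of which 3 and 3 were shared. ZNF551 had 2 KDM1A regions and no H3K9me3 region. Like most ZNF genes with H3K9me3, ZNF584, ZNF552 and ZNF766 had none of KDM1A, beside 2, 6 and 3 H3K9me3 regions. ZNF331 was chosen after its values were seen. These genes are close relatives in sequence, so reads may not be placed on 1 gene with certainty.

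The genes with the most KDM1A regions, those with a clone name left out, had fewer H3K9me3 than KDM1A regions, but the H3K9me3 list is shorter. All of those named here except CNTN5 had at least 1 H3K9me3 region, against 9.3% of all KDM1A genes (366 of 3937). The part of the number of KDM1A regions per gene in this was not tested. Outside 5p, CNTN5 (a contactin of neurons) had 43 KDM1A regions and 0 of H3K9me3. ALCAM, a cell adhesion molecule, had 41 and 3, CBLB, a ubiquitin ligase, had 35 and 1, the long noncoding RNA LINC01278 had 26 and 3, and ZC4H2, a zinc finger gene on chromosome X, had 24 and 5. On 5p the cadherin genes led: CDH18 had 83 KDM1A regions and 1 H3K9me3 region, CDH9 had 41 and 3, and CDH12 had 39 and 4, of which 3 overlapped. CTNND2 (delta-catenin, which binds cadherins) had 61 and 2, and the noncoding RNA gene PURPL had 28 and 2.

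Genes with several regions of both targets or of H3K9me3 differed in how many of these overlapped. DEFB115, a beta-defensin gene on chromosome 20, had 9 KDM1A and 23 H3K9me3 regions, of which 7 and 7 were shared. The pseudogene KSR1P1 on chromosome 10 had 12 and 16, with 6 and 6 shared. HEPH (hephaestin, a ferroxidase, on chromosome X) had 17 and 6, with 3 and 3 shared, and EMB had 3 and 5, with 3 and 3 shared. IGHV1OR21-1 had 1 and 12, with 1 and 1 shared, and PPP1R1AP2 had 2 and 10, with none shared. These counts are of regions assigned to the nearest gene. For DEFB115, KSR1P1, EMB, IGHV1OR21-1 and PPP1R1AP2 no region of either target was at a promoter.

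Few genes of the KDM1A and H3K9 machinery had a region of either target, and none had both. Over all genes, 366 of 3937 with KDM1A (9.3%) also had H3K9me3, so these few genes cannot show that both are avoided. The share of all annotated genes with a region is not given here, so the list counts below have no background. Of 21 genes of the CoREST complex and its partners, KDM1A (6 regions), ZNF217 (4 regions, a zinc finger partner) and RCOR1 (1 region, the CoREST scaffold) had KDM1A regions and none had H3K9me3. Of 31 genes that write, read or erase H3K9 methylation, MECOM had 7 KDM1A regions and TRIM28 had 1 H3K9me3 region, at its promoter and ranked 2 of 2073. Of 33 EGFR and MAPK genes 5 had KDM1A regions and 0 had H3K9me3. SPRY2, a feedback inhibitor of the pathway, had 1 promoter region ranked 11, while EGFR had 3 regions, BRAF 3 and ETV1, an ETS factor gene, 2. Of 30 genes of fatty acid synthesis, the process named in the study's title, HSD17B12 and ACSL4 had 1 KDM1A promoter region each, ranked 6231 and 8684 of 8882, and 0 had H3K9me3. Of 22 glycolysis genes 0 had a region of either target.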

How the data were processed

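The regions refer to GRCh38 (hg38). Bowtie2 2.3.4, HISAT2 and featureCounts are named, per the submitters' processing notes, with no role. How peaks were called, thresholded, controlled and annotated is not stated in the sources used. The authors deposited 1 table of 2 kb regions per library, with class, nearest gene, signed distance in bp to a transcript start and a signal. The deposited signal is a height per region with no stated normalization, so it served only for ranks and filters inside 1 list. The depth is unknown. No list held overlapping regions, and each list is 1 library.

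Overlap was counted from 1 bp, checked against bedtools 2.31.1 and tested on simulated regions. Shares have exact Clopper-Pearson 95% intervals and differences of shares Newcombe intervals. With 1 library per target no test was made. The comparison, the gene lists and their members were chosen with earlier results of these data known. The named sites are the 15 overlapping pairs with the lowest sum of both ranks, each as a share of its list. Genes known only by a clone name, with no symbol, were left out of the named sites and genes. Named genes are the 5 with the most regions of each target on 5p and outside it, the 5 strongest regions of each list, the 5 genes outside 5p with the highest smaller count of both targets, and up to 4 per gene list. Other genes named were chosen after their values were seen. A gene that this rule names is not reported here. Gene names are those of the deposited tables, except for 9 KDM1A regions and 1 H3K9me3 region whose name had turned into a date. Promoter sequences came from RefSeq (GRCh38.p14), and LOC entries were not printed. Alternatives are listed in the closing section. The work was done in Python 3.11.15 with scipy 1.17.1, pandas 2.3.3, numpy 2.4.6 and, for figures, matplotlib 3.10.9.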

Additional observations from a re-analysis of the deposited data

How the results depend on the processing

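No paired analysis was possible because each target has 1 library, and for the same reason no replicate could be left out. Of 68 alternative values, 35 stayed within the main 95% interval (for gene counts, within 1.5 times) and 33 moved out of it. None changed the sign of a difference whose interval lay on 1 side of 0. The cause of a move was not tested.

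The KDM1A share that overlaps H3K9me3, 1.95%, was 3.14% with equal numbers of the strongest regions, 1.53% in the stronger 50% of each list, 1.31% without chromosome 19, 1.29% with an overlap of at least 1000 bp, 2.59% counting regions within 1 kb, 1.16% without chromosome 19 and 5p, and 1.31% without regions on either H3K4 mark. The H3K9me3 share that overlaps KDM1A, 8.44%, was 3.18%, 6.56%, 9.87%, 5.55% and 11.6% under the first 5 of these, 6.72% without regions on H3K4 marks and 7.09% without 5p. On chromosome 19 the KDM1A share of 43.6% was 26.3% with at least 1000 bp and 54.9% counting regions within 1 kb. That share and the runs without chromosome 19 and 5p together and without regions on H3K4 marks were added after seeing the data.

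The difference on chromosome 5 was 2.18 points without 5p, 23.4 with equal numbers and 26.4 in the stronger 50%. On chromosome 7 it was 2.04 without 5p. On chromosome 19 it was -44.2 without 5p and -66.0 in the stronger 50%. The promoter difference was -31.2 points in the stronger 50% and -15.9 counting promoters within 1 kb, and the intronic difference 16.2 with equal numbers and 17.6 in the stronger 50%. The intergenic difference was 19.9 points in the stronger 50%.

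Genes of both targets numbered 171 with equal numbers and 130 in the stronger 50%, in place of 366. Genes with promoters of both numbered 20 with equal numbers, 29 in the stronger 50%, 17 without chromosome 19 and 27 with promoters within 1 kb, in place of 60. Read depth is unknown, so a place missing from a list is not shown to lack the target.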

Other observations

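Other gene families with regions of both targets were small. Olfactory receptor genes had KDM1A regions at 43 genes, H3K9me3 regions at 9 and both at 4. That was 9.3% of the KDM1A ones, as over all KDM1A genes (9.3%). Of the 4, OR5AH1P on chromosome 19 had 1 KDM1A and 9 H3K9me3 regions. Genes named ZSCAN, ZKSCAN or ZFP, relatives of the ZNF genes, had 4, 10 and 3. These 3 were on chromosome 19, where 74.7% of all KDM1A genes had both. Genes of the DUX, FRG and USP17 families, which lie in repeated arrays, had 6, 9 and 2, or 33.3% of the KDM1A ones. All 7 cadherin genes with KDM1A regions together had 184 of them, and 4 of these genes had H3K9me3 as well, with 10 regions in all. The 4 were on 5p, where 18.8% of all KDM1A genes had both. These families have too few genes to be told from such shares. Clustered protocadherins had 0 genes with KDM1A and 1, PCDHA7, with H3K9me3, and keratin genes had 1, KRT1, with KDM1A and 0 with H3K9me3.

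KDM1A with osimertinib overlapped each H3K4 mark with osimertinib at a few percent of its regions, as it did H3K9me3: 2.77% (2.44 to 3.13) for H3K4me1 and 2.42% (2.11 to 2.76) for H3K4me3, against 1.95% (1.67 to 2.26) for H3K9me3. The lists differ in length, with 6515, 13285 and 2073 regions. On chromosome 19 the shares were 0 of 133 for H3K4me1, 32 of 133 (24.1%, 17.1 to 32.2) for H3K4me3 and 58 of 133 (43.6%, 35.0 to 52.5) for H3K9me3.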
